A study of Mus musculus with 56 samples.

Results

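The Trim genes are the mouse genes whose symbol is Trim followed by a digit, and every ChIP-seq peak that carried such a gene name was taken. Of 69 Trim genes in the RefSeq annotation, 60 had at least 1 peak, out of 20352 genes with a peak in all, and 4632 of 1610519 peaks bore their names. Trim10, Trim30c, Trim40, Trim5, Trim50, Trim60, Trim61, Trim80, and Trim9 had none. HOMER gave each peak the gene with the nearest transcription start site, so a name is a position and not a proven target. A total of 230 Trim sites passed the test in at least 1 comparison, some of them only in site comparisons not given below. Of these, 90 lay inside the gene they were named for, 35 only inside another gene, and 16 outside genes but nearer to another gene body.

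All samples were bone marrow-derived macrophages (BMDMs) of wild-type C57BL/6 mice aged 8 to 12 weeks, grown for 6 days with L929 cell supernatant and crosslinked with DSG and formaldehyde. The 56 samples made 28 groups of 2 replicates for 9 antibodies. In the 1 hr experiment, untreated cells (ctrl) and cells given IL-4 at 20 ng/ml for 1 hr were compared for RNAPII-pS5, RNAPII-pS2, H3K27Ac, p300, PU.1, HDAC1, HDAC2, and HDAC3. In the LPS experiment, RNAPII-pS5, RNAPII-pS2, and p65 were mapped in untreated cells (ctrl/ctrl), cells pretreated with IL-4 for 24 hr (IL-4 PT/ctrl), cells given LPS at 100 ng/ml for 1 hr (ctrl/LPS), and cells given IL-4 and then LPS (IL-4 PT/LPS). The labels do not say whether replicates came from separate cultures or mice, so p-values measure only the spread between samples.

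TRIM proteins share a RING finger, a B-box, and a coiled coil, followed by a variable end such as a PRY-SPRY domain, and most are E3 ubiquitin ligases. Many act in innate immunity: TRIM25 and TRIM65 ubiquitinate the RNA sensors RIG-I and MDA5, TRIM21 is a cytosolic antibody receptor, TRIM14 works beside MAVS on mitochondria, and mouse TRIM30a restrains NF-κB signaling. Others are chromatin cofactors (TRIM24, TRIM28, and TRIM33) or RNA-binding NHL proteins (TRIM71), and several family members are interferon-induced in macrophages. RNAPII-pS5 is the polymerase early in the transcription cycle and RNAPII-pS2 the elongating one. H3K27Ac and its writer p300 mark active enhancers and promoters, HDACs remove acetyl groups, PU.1 is the macrophage lineage factor, and p65 is the NF-κB subunit that enters the nucleus after LPS.

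The sequences below are the middle 200 bases of 5 p65 sites on which the LPS results turn, on the plus strand of GRCm38. They comprise the site with the largest gain with LPS (Trim13), a pair of LPS-gained sites that resemble each other (Trim30b −42.4 kb and Trim30a +18.9 kb), and a pair found only in IL-4-pretreated LPS samples (Trim58 +0.7 kb and Trim30b −46.1 kb). Distances are from the start site of the named gene, and capitals mark matches to GGGNNNNNCC, a κB-type motif, read on either strand.
Trim13 −1.0 kb (intergenic, chr14:61597106-61597305): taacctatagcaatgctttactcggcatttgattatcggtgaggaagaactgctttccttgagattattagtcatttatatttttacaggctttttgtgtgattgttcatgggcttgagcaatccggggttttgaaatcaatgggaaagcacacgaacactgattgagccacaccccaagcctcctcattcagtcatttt
Trim30b −42.4 kb (inside the Trim30c gene body, chr7:104400951-104401150): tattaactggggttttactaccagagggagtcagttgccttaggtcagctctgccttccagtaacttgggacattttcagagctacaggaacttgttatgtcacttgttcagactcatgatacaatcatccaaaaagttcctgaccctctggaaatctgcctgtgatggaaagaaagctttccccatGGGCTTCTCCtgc
Trim30a +18.9 kb (Trim30a intron, chr7:104446196-104446395): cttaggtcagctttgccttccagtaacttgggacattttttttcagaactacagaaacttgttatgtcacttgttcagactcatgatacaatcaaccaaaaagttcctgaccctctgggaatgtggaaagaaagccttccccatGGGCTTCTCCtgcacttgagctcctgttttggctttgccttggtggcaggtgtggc
Trim58 +0.7 kb (Trim58 intron, chr11:58641057-58641256): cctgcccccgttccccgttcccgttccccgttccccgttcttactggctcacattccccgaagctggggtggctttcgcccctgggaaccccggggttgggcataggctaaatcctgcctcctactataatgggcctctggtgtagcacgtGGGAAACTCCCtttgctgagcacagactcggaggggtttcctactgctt
Trim30b −46.1 kb (intergenic, chr7:104404616-104404815): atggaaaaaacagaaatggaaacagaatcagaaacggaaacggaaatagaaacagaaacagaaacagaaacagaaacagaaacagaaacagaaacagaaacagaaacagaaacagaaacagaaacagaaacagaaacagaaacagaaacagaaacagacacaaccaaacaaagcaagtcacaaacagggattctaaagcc

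The Trim30b −42.4 kb and Trim30a +18.9 kb windows held the same match and were identical at 147 of 166 aligned columns (88.6%), with 6 mismatches and 13 gap columns. Both lie in the chromosome 7 cluster of near-identical Trim30, Trim34, and Trim12 genes, and reads of such copies may have been split or misplaced in alignment, so values of these genes are uncertain. The Trim58 window held 2 overlapping matches on opposite strands. The Trim13 window held none, and neither did the Trim30b −46.1 kb window, a GAAAC repeat with 21 matches to GAAANNGAAA, a pattern of interferon-response elements. A match is a description of letters and not a binding site.

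The score of a MACS2 peak is a −log10 p- or q-value and that of an H3K27Ac region a count of normalized tags. A gene value is the sum of scores over its peaks that were not intergenic, and a site value is the highest score at a region merged across the samples of an antibody. Absent peaks are printed as 0 and entered the fits at the lowest score of that antibody's files (1.3 for PU.1 to 1.44 for RNAPII-pS5, and 9.1 for H3K27Ac), so a change from or to 0 depends on that floor, and 2 replicates at the floor have no spread. Changes are log2 values ± SE after each sample was centered on features with a peak in every sample. The test was limma with Benjamini-Hochberg adjustment over all genes or sites, and called means an adjusted p of at most 0.05. Each fit was repeated with each sample left out, and a gene or site then needed a peak in 2 remaining samples of the conditions compared to be tested. A feature with peaks in only 2 of those samples could therefore not be tested without either of them, and a call said to hold in every fit that could be run covers the other samples only. Of 52 gene calls on the Trim genes named by the rule in the methods, 10 held in every fit that could be run and 12 in none, and of 100 site calls 40 held in every fit that could be run and 13 in none, with no change of sign.

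The lists held 8440 (HDAC3, ctrl replicate 2) to 71027 (PU.1, IL-4 replicate 2) peaks, of which 15 to 192 were Trim peaks. Read depth is unknown. p300 ctrl replicate 1 stood apart, with 44787 peaks against 66710 to 69360 in the other p300 lists. RNAPII-pS5 lists held 19279 to 22149 peaks without LPS and 14476 to 18207 with it, and p65 lists 9556 to 11026 without LPS and 26305 to 38955 with it. For RNAPII-pS2 in the 1 hr experiment, peak names inside all 4 lists carry the other treatment than the labels, which were followed here, and the labels give HDAC3 the antibody catalogue number of H3K27Ac. All 8 macrophage marker genes checked had RNAPII-pS2 peaks that were not intergenic, against 2 of 11 markers of other blood and stromal cells (Ms4a1 and Klrb1c).

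Trim genes were widely occupied in these macrophages, led by a small set. Trim30b, Trim36, Trim56, and Trim8 had a peak in all 56 libraries, 37 Trim genes had a promoter peak in at least 1 library, and Trim30e-ps1, Trim38, Trim43b, Trim6, and Trim75 had only intergenic peaks. The highest mean summed score belonged to Trim45 for RNAPII-pS5 in the 1 hr experiment (147.05), to Trim8, a ligase linked to TNF and IL-1 signaling, for p300 (335.64), PU.1 (150.72), and HDAC3 (40.14), and to Trim69 for H3K27Ac (577.8) and p65 (58.76). Trim36 led for HDAC1 (30.13) and HDAC2 (35.0), and Trim30a led for RNAPII-pS5 (56.36) and RNAPII-pS2 (61.01) in the LPS experiment. Among Trim peaks, 16.0% were at promoters and 3.02% in 5′ UTRs, against 13.1% and 1.03% of all peaks.

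**Figure D1:**
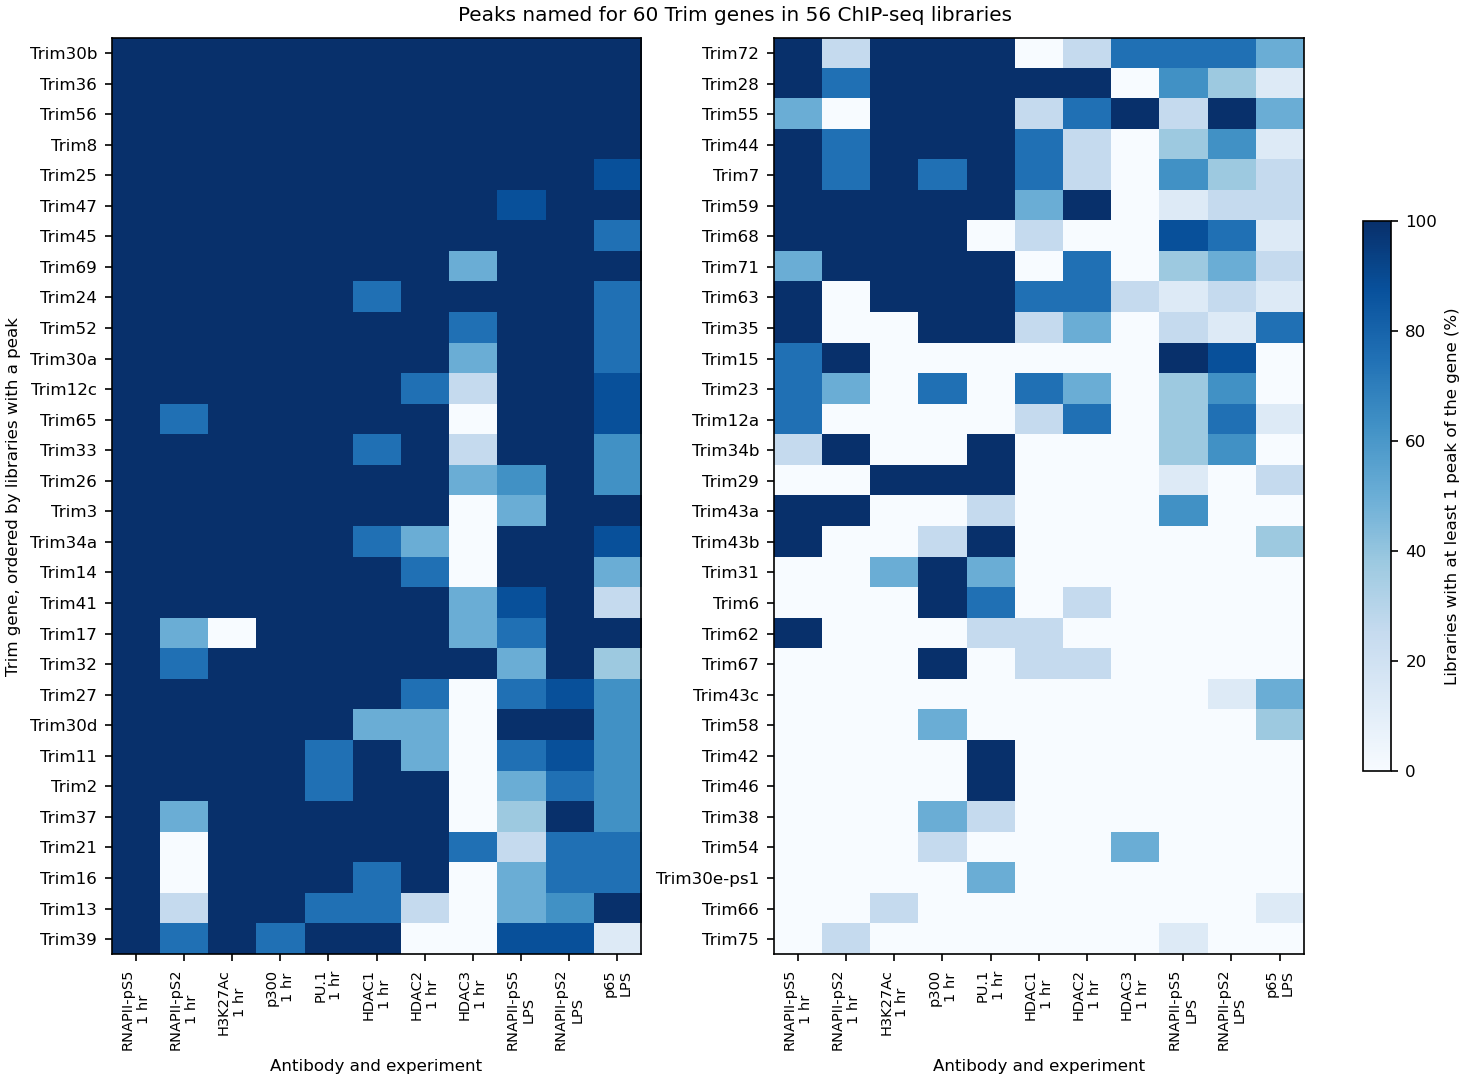
Heat map of the share of libraries (color, in percent) with at least 1 peak named for each of the 60 Trim genes (rows) by antibody and experiment (columns). Peaks in every library were found for 42 Trim genes with p300 and 41 with PU.1, but for 9 with p65 and 10 with HDAC3.

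After 1 hr of IL-4, H3K27Ac was the mark that changed at most Trim sites. Of 80 Trim sites tested, 6 rose and 22 fell, against 18.5% and 21.7% of all 28929 sites, and the median change was −0.12 over Trim sites and −0.02 over all sites. Of 34 Trim genes tested at gene level, 1 rose and 5 fell, against 12.3% and 13.9% of all genes. The shares at gene level are near that background for falls and below it for rises.

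Trim8 held the largest change. At +21.5 kb (intergenic, chr19:46522692-46523700), 5.89 kb beyond the end of the gene, no region was listed in either ctrl sample and IL-4 samples had 220.5 and 217.0 normalized tags (4.64 ± 0.06 against the floor, adjusted p = 8.63e-05). The same position already held p300 (59.8 and 160.86 in ctrl, 130.19 and 136.61 with IL-4), PU.1 (47.96 and 48.87, then 62.25 and 49.16), and HDAC3 peaks (24.13 and 14.15, then 22.54 and 22.7), whose ctrl and IL-4 values overlapped or lay close together. The call held without either ctrl sample (highest adjusted p = 0.00436), and without an IL-4 sample the site could not be tested. The paper called histone regions with a set size and a least distance apart. An unlisted region is thus not a measured absence of the mark, and the ctrl signal at this position is unknown.

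Elsewhere around Trim8 the mark was lower with IL-4. The intronic site at +9.9 kb had 368.4 and 349.3 tags in ctrl and 282.4 and 286.0 with IL-4 (−0.28 ± 0.06, adjusted p = 0.037), and the site at −22.7 kb, inside the neighboring gene Sufu, had 103.8 and 105.0, then 67.9 and 62.5 (−0.63 ± 0.08, adjusted p = 0.010). The calls were lost in 4 and 2 of 4 leave-one-out fits (up to 0.162 and 0.0594). Trim8 as a gene, whose sum includes these 2 sites, fell from 472.2 and 485.8 to 350.3 and 348.5 (−0.47 ± 0.05, adjusted p = 0.015). With intergenic peaks counted, which adds the gained site, its change was 0.11 (adjusted p = 0.187), so the direction for Trim8 depends on which peaks are summed.

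The other sites that rose were few. The Trim26 promoter, in the MHC region, had 112.0 and 112.5 tags in ctrl and 156.3 and 170.4 with IL-4 (0.59 ± 0.07, adjusted p = 0.010), and Trim26 was the only gene-level rise (137.2 and 137.8, then 192.4 and 204.8, 0.52 ± 0.06, adjusted p = 0.015). Trim26 was named after its values were seen. Trim69 at +3.3 kb, the highest H3K27Ac site of the family, had 529.2 and 509.5, then 654.6 and 617.9 (0.35 ± 0.07, adjusted p = 0.030). Trim30b at −42.2 kb had 135.7 and 141.2, then 188.4 and 225.6 (0.63 ± 0.11, adjusted p = 0.023), and p300 there was 12.52 and 44.32 in ctrl and 95.23 and 103.71 with IL-4. The low ctrl replicate 1 of p300 is the library with fewer peaks. The Trim69 call was lost whichever sample was left out (up to adjusted p = 0.142), and the Trim30b call in 3 of 4 cases (up to 0.101).

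**Figure D2:**
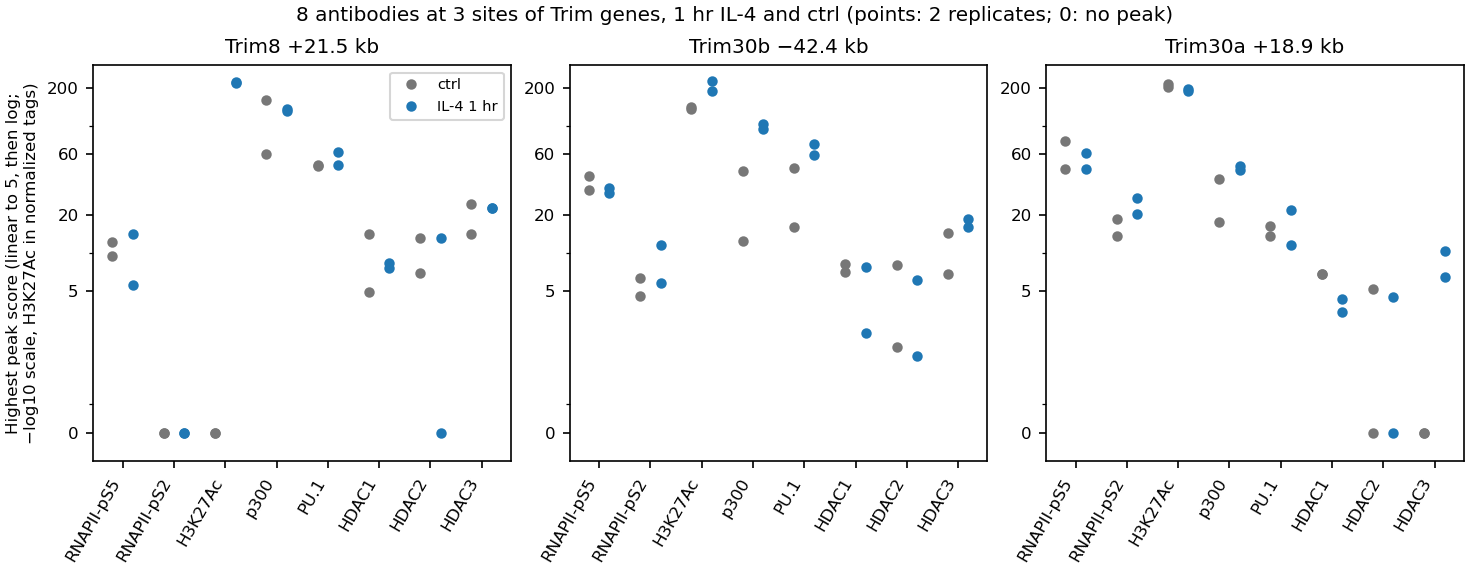
Peak scores of 8 antibodies in the 1 hr experiment (points are the 2 replicates of ctrl and IL-4 1 hr; the axis is linear to 5 and then logarithmic) at Trim8 +21.5 kb, Trim30b −42.4 kb, and Trim30a +18.9 kb. H3K27Ac at Trim8 was listed only with IL-4 (220.5 and 217.0), whereas p300 and PU.1 peaks were present before IL-4.

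Falls of H3K27Ac lay mostly at distal sites. Trim33 +121.3 kb had 23.9 and 21.2 tags in ctrl and no region with IL-4 (−1.25 ± 0.08, adjusted p = 0.0032), and Trim52 −94.2 kb had 62.0 and 62.2, then 25.8 and 27.8 (−1.16 ± 0.07, adjusted p = 0.0024). Trim45 +9.9 kb, in its 3′ UTR, had 33.2 and 37.5, then 16.2 and 18.7 (−0.97 ± 0.12, adjusted p = 0.010). The Trim52 and Trim45 calls held in all 4 leave-one-out fits, and that of Trim33 in the 2 that could be run, those without an IL-4 sample. Trim52 −61.7 kb (36.8 and 28.7, then 15.2 and 12.2, −1.20 ± 0.19, adjusted p = 0.018) and Trim13 −9.4 kb (35.3 and 46.2, then 21.2 and 21.5, −0.87 ± 0.16, adjusted p = 0.025) also fell, and each lost the call in 2 of 4 leave-one-out fits (up to 0.0596 and 0.0777).

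Trim24, a bromodomain cofactor of nuclear receptors, is the nearest start site to a pair of distal regions named here after their values were seen. At −138.4 kb H3K27Ac had 50.6 and 50.3 tags in ctrl and 16.6 and 27.4 with IL-4 (−1.19 ± 0.27, adjusted p = 0.040). RNAPII-pS5 at the same place had 10.58 and 9.93 in ctrl and no peak with IL-4 (−2.72 ± 0.27, adjusted p = 0.041). At −147.3 kb H3K27Ac had 13.8 and 14.4 in ctrl and no region with IL-4 (−0.58 ± 0.06, adjusted p = 0.0085). Both regions lie over 100 kb from any gene body, and what they regulate was not measured.

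At gene level the falls beside Trim8 were Trim16, whose product binds damaged endomembranes (116.0 and 131.5, then 92.7 and 88.9, −0.46 ± 0.09, adjusted p = 0.043), Trim45 (317.4 and 332.1, then 257.6 and 265.9, −0.32 ± 0.06, adjusted p = 0.036, in part from a site inside the neighboring gene Vtcn1), the stem cell gene Trim71 (47.6 and 41.9, then 31.5 and 27.4, −0.62 ± 0.11, adjusted p = 0.036, from a site inside Cnot10), and Trim31 (16.3 and 13.7, then none, −0.73 ± 0.10, adjusted p = 0.022), named after its values were seen. In each of these genes the ctrl and IL-4 samples did not overlap. The calls on Trim8, Trim16, Trim45, and Trim71 were lost in every leave-one-out fit, with adjusted p up to 0.157.

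**Figure D3:**
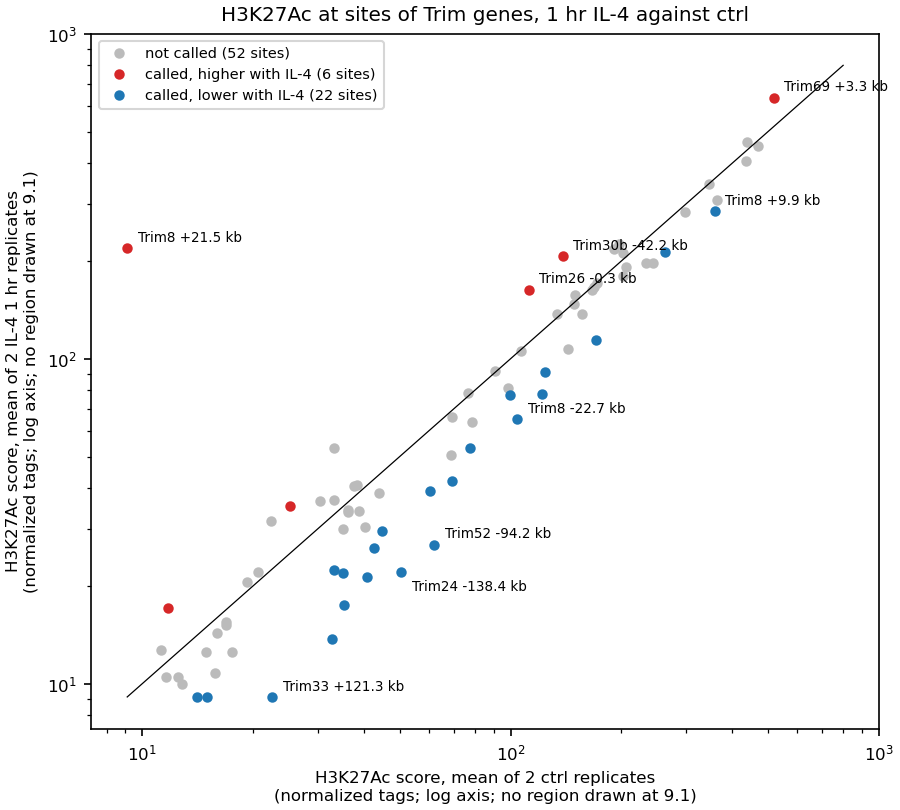
H3K27Ac at the 80 Trim sites, as the mean of 2 ctrl replicates (x axis) against the mean of 2 IL-4 1 hr replicates (y axis), both in normalized tags on log axes with absent regions drawn at 9.1. Red points rose (6 sites) and blue points fell (22 sites), and Trim8 +21.5 kb stands far above the line of equality.

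Polymerase changed at few Trim genes after 1 hr of IL-4. For RNAPII-pS5, 1 of 40 genes fell and none rose (background 0.661% and 0.343%), and 1 of 108 sites rose and 5 fell (background 2.53% and 2.9%). Trim71 was the gene, with 6.36 and 5.19 in ctrl and no peak with IL-4 (−1.97 ± 0.17, adjusted p = 0.047), from a single site at −28.2 kb inside the neighboring gene Cnot10, and the call was lost without either IL-4 sample (up to 0.186). The other sites that fell were Trim24 −138.3 kb, Trim25 −5.2 kb (13.47 and 6.85, then none), Trim56 −78.5 kb (8.25 and 8.15, then none), and Trim16 −12.1 kb (9.79 and 6.45, then none), and the site that rose was Trim3 +6.7 kb (none, then 5.36 and 4.75), named after its values were seen. None of the 6 sites was called when a sample was left out or without centering.

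The remaining 6 antibodies gave no Trim gene past the threshold with limma after 1 hr of IL-4, as 0.0% of all genes were called for each. At an unadjusted p of at most 0.05 there were 1 of 32 Trim genes for RNAPII-pS2 (1247 of all 8687 genes), 8 of 38 for p300 (3010 of 13593), 3 of 36 for PU.1 (1139 of 11504), 3 of 30 for HDAC1 (921 of 10679), 5 of 27 for HDAC2 (821 of 8243), and 3 of 11 for HDAC3 (667 of 4090). At site level 0.0% of all sites were called for RNAPII-pS2, PU.1, HDAC1, HDAC2, and HDAC3, with 5 of 61, 11 of 157, 11 of 75, 10 of 64, and 8 of 26 Trim sites at an unadjusted p of at most 0.05. Over all sites these counts were 3849 of 18314, 8260 of 67996, 3836 of 27384, 3440 of 24751, and 2427 of 12567. For p300, 1 of 184 Trim sites rose and none fell, against 1.88% and 0.58% of all sites. That site was Trim33 −7.0 kb, with 0 and 5.68 in ctrl and 38.08 and 43.21 with IL-4 (3.21 ± 0.32, adjusted p = 0.0472), and the call held without ctrl replicate 1 (2.92, adjusted p = 0.048) but not without either IL-4 replicate (0.226 and 0.174) or without centering (0.131).

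Groups that did not overlap and differed by over 1 in log2 are given as values, since 2 against 2 samples cannot go below p = 0.333 by an exact permutation test. For RNAPII-pS2 this held for 4 of 32 Trim genes (21.7% of all genes), with Trim8 at 64.33 and 70.99 in ctrl and 21.81 and 20.52 with IL-4 (−1.60 ± 0.36, adjusted p = 0.16) by the labels, Trim28 and Trim56 also lower, and Trim65 higher. It held for 5 of 38 with p300 (18.2%), with Trim33 at 4.2 and 17.02, then 47.74 and 39.56, and Trim29 at 5.33 and 16.21, then none. For PU.1 there were 3 of 36 (14.7%), among them Trim21, with no peak in ctrl and 7.14 and 4.42 with IL-4.

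For HDAC1, 4 of 30 Trim genes were lower with IL-4 and none higher: Trim14, Trim16 (9.09 and 7.53, then 2.82 and 0), Trim26, and Trim33 (10.12 and 3.94, then none). Over all 10679 genes, 1139 were lower and 565 higher by that rule (16.0% in either direction). HDAC1 lists also held fewer peaks with IL-4 (23270 and 22340) than in ctrl (30511 and 26836), and the part of this in the result was not tested. For HDAC2 there were 8 of 27 (18.9%), 4 in each direction, with Trim35 at 0 and 0, then 7.96 and 5.73, and Trim34a at 0 and 0, then 4.63 and 5.88. For HDAC3 there were 3 of 11 (25.2%), with Trim30a at 0 and 0, then 6.5 and 10.36, Trim69 at 7.68 and 8.1, then none, and Trim41 higher.

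LPS for 1 hr moved polymerase in both directions at Trim genes, as over all genes, with shares mostly near the background. For RNAPII-pS5, 4 of 28 Trim genes rose and 7 fell (background 9.39% and 22.5%), and 18 of 72 sites rose and 20 fell (background 17.5% and 29.3%). For RNAPII-pS2, 3 of 31 genes rose and 3 fell (11.3% and 15.4%), and 29 of 101 sites rose and 19 fell (25.0% and 22.2%). The median gene change for RNAPII-pS5 was −1.34 over Trim genes and −0.53 over all genes. Without centering the median over all genes was −0.87, and 1 Trim gene rose and 10 fell. With quantile normalization 1 rose and 4 fell. The split of RNAPII-pS5 calls thus depends on the scaling, as 29.5% of all calls were rises with centering, 18.9% without, and 45.6% with quantile normalization, and the RNAPII-pS5 rises of Trim30a, Trim14, and Trim45 below were not called without centering.

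The rises were led by Trim30a. RNAPII-pS5 there was 40.21 and 49.37 in ctrl/ctrl and 88.28 and 83.15 in ctrl/LPS (1.28 ± 0.33, adjusted p = 0.031), and RNAPII-pS2 was 39.83 and 38.22, then 85.31 and 95.18 (1.12 ± 0.26, adjusted p = 0.024). Within the gene, RNAPII-pS2 appeared at +1.6 kb with 17.44 and 17.22 from none (3.45 ± 0.23, adjusted p = 0.00034). The gene-level calls were lost when any ctrl/ctrl or ctrl/LPS sample was left out (up to 0.172 and 0.117). Trim30d, its neighbor, named after its values were seen, had RNAPII-pS5 of 15.97 and 9.11, then 40.5 and 41.58 (2.11 ± 0.44, adjusted p = 0.015).

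Trim14 and Trim45 rose too. RNAPII-pS5 at Trim14 was 19.1 and 12.88, then 44.3 and 37.61 (1.72 ± 0.51, adjusted p = 0.045), a call lost in 6 of 8 leave-one-out fits (up to 0.236). RNAPII-pS2 at Trim14 was not called (0.49 ± 0.31, adjusted p = 0.293). At Trim45, RNAPII-pS5 was 22.23 and 12.77, then 29.54 and 37.39 (1.32 ± 0.36, adjusted p = 0.035), and RNAPII-pS2 was 18.27 and 14.62, then 32.52 and 39.28 (1.04 ± 0.27, adjusted p = 0.037). Both Trim45 calls were lost in all 8 fits (up to 0.191 and 0.176). Trim7, a partner of glycogenin, had RNAPII-pS2 of 6.01 and 6.72 in ctrl/LPS from none in ctrl/ctrl (2.10 ± 0.58, adjusted p = 0.043, lost in 4 of 6 fits, up to 0.18). Its RNAPII-pS5 changed in the other direction and was not called (−1.46 ± 0.73, adjusted p = 0.17).

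The falls were led by Trim32, an NHL-type ligase mutated in a muscular dystrophy. RNAPII-pS5 was 25.67 and 27.65 in ctrl/ctrl and absent in both ctrl/LPS samples (−3.87 ± 0.28, adjusted p = 0.0018), and RNAPII-pS2 was 42.69 and 32.24, then 12.87 and 8.46 (−1.92 ± 0.30, adjusted p = 0.007). The largest RNAPII-pS5 site of Trim32 lay at −59.3 kb inside Astn2, the gene that also surrounds Trim32 (16.18 and 22.61, then none), and the RNAPII-pS2 site at its promoter was also lost (7.23 and 4.46, then none). The gene-level RNAPII-pS5 call held in the 6 leave-one-out fits that could be run, none of them without a ctrl/ctrl sample, and the RNAPII-pS2 call was lost without ctrl/ctrl replicate 1 (0.0596).

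Of the 4 chromatin cofactors of the TIF1 group, 2 were tested for RNAPII-pS5 with LPS, and both fell, where 22.5% of all genes did. Trim33, which also ubiquitinates SMAD4, had 8.82 and 9.07 in ctrl/ctrl and none in ctrl/LPS (−2.29 ± 0.29, adjusted p = 0.0035), all at its promoter, a call that held in the 6 fits that could be run, none of them without a ctrl/ctrl sample. RNAPII-pS2 at Trim33 changed by −1.22 ± 0.37 and was not called (adjusted p = 0.0552). Trim28, the KRAB zinc finger corepressor, named after its values were seen, had 15.9 and 7.19, then none (−2.55 ± 0.77, adjusted p = 0.048). RNAPII-pS5 peaks were fewer in ctrl/LPS lists, and the part of this in losses of low peaks was not tested.

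Other falls spread over the family. Trim27 had RNAPII-pS5 of 16.91 and 7.92, then none (−2.67 ± 0.47, adjusted p = 0.0087), the neuronal gene Trim2 13.14 and 8.82, then none (−2.56 ± 0.68, adjusted p = 0.034), and Trim41, named after its values were seen, 29.51 and 14.04, then 0 and 5.5 (−2.51 ± 0.68, adjusted p = 0.035). Trim65 fell for both forms, with RNAPII-pS5 of 21.81 and 17.15, then 6.4 and 4.97 (−1.44 ± 0.34, adjusted p = 0.024) and RNAPII-pS2 of 15.48 and 14.99, then 9.89 and 6.46 (−1.02 ± 0.29, adjusted p = 0.048). Trim23, which carries an ARF domain beside its RING, had RNAPII-pS2 of 13.11 and 13.45, then none (−3.35 ± 0.51, adjusted p = 0.0064), a call that held in the 6 fits that could be run, none of them without a ctrl/ctrl sample. The Trim23 promoter site lies 0.309 kb from Trappc13. RNAPII-pS5 of Trim23 in the 1 hr experiment was 0 and 66.26 in ctrl and 64.22 and 65.41 with IL-4. Whether absent Trim23 peaks bore the name of the neighbor was not tested. For RNAPII-pS5, Trim27 lost its call without ctrl/LPS replicate 1 (0.0502), Trim2 without either ctrl/LPS sample (up to 0.12), and Trim65 without any ctrl/ctrl or ctrl/LPS sample (up to 0.138), and the RNAPII-pS2 call on Trim65 was lost in all 8 fits (up to 0.207).

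**Figure D4:**
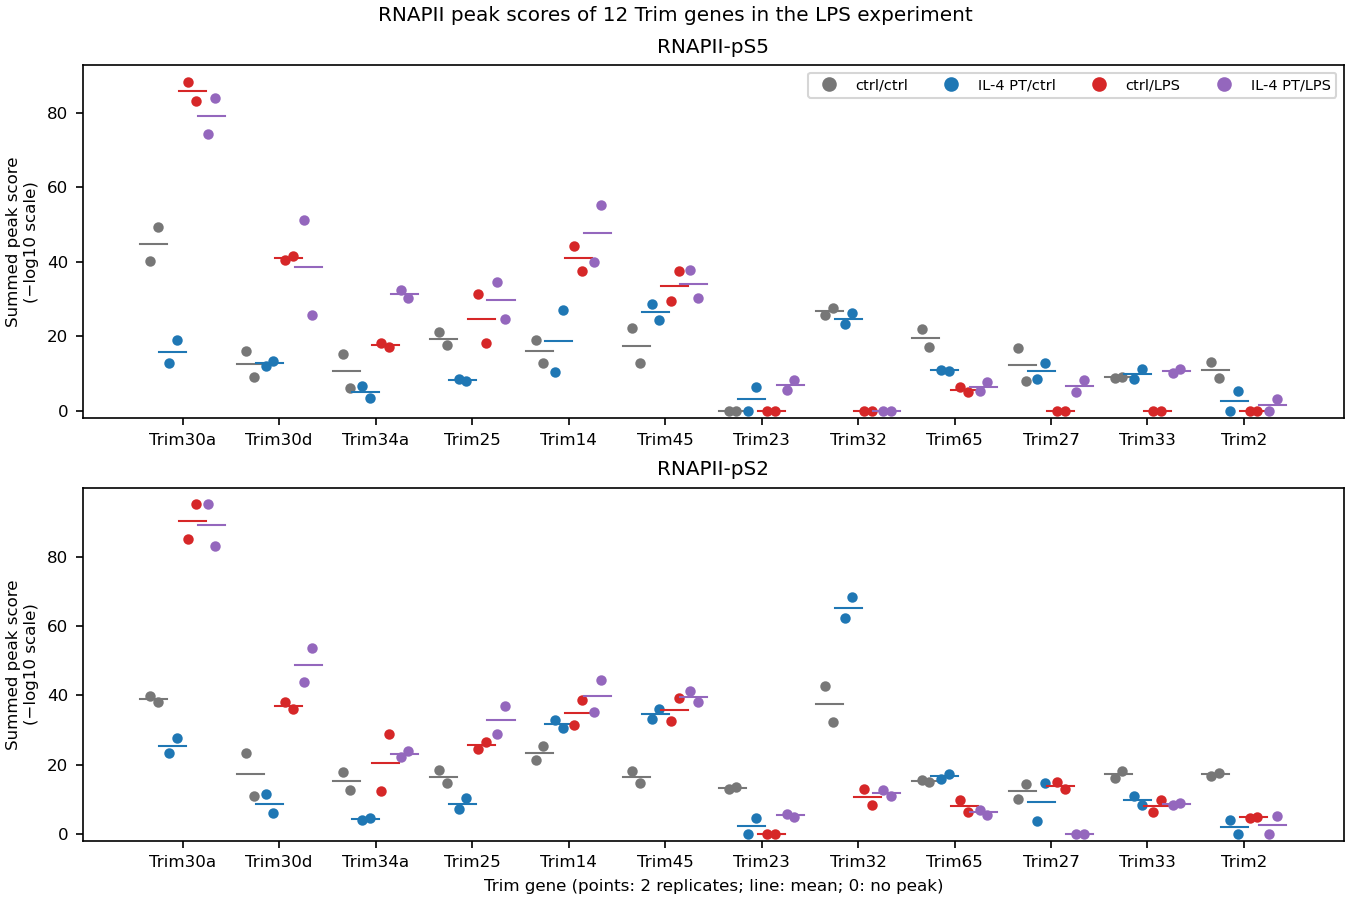
Summed RNAPII-pS5 (top) and RNAPII-pS2 (bottom) peak scores (−log10 scale) of 12 Trim genes in the 4 conditions of the LPS experiment (points are 2 replicates, lines their mean, 0 is no peak). Trim30a is highest in both LPS conditions and lowest in IL-4 PT/ctrl, and Trim32 RNAPII-pS5 is absent in all 4 LPS samples.

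p65 was gained at many Trim sites with LPS, though at shares below those over all sites and genes. Of 75 sites tested, 31 rose and 4 fell (background 45.0% and 7.0%), and of 23 genes 3 rose and 1 fell (24.4% and 7.91%). The median site change was 1.35 over Trim sites and 1.14 over all sites. Without centering the median change was 2.04 over all genes and 2.18 over all sites (0.52 and 1.14 with it), and 16 of 23 Trim genes rose and none fell, and 51 of 75 sites rose and 2 fell, so a fall of p65 is relative to the sites present in every sample.

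The largest gain lay at Trim13, an ER-anchored ligase, at −1.0 kb, which had no peak in the 4 samples without LPS, 61.9 and 62.96 in ctrl/LPS, and 71.69 and 75.56 in IL-4 PT/LPS (4.53 ± 0.17 against the floor, adjusted p = 0.00018). In the 1 hr experiment this site held p300 (43.61 and 81.86 in ctrl, 20.6 and 33.05 with IL-4) but no PU.1, HDAC, or H3K27Ac peak. A further site at −9.6 kb had 10.45 and 17.6 in ctrl/ctrl and 85.98 and 77.72 in ctrl/LPS (1.55 ± 0.36, adjusted p = 0.016, up to 0.132 with a sample left out), and RNAPII-pS5 appeared there with LPS (none, then 8.85 and 12.2, 3.03 ± 0.27, adjusted p = 0.00087). Neither form of polymerase could be tested at gene level for Trim13 in the LPS experiment.

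In the chromosome 7 cluster, Trim30b −42.4 kb had no ctrl/ctrl peak and 28.62 and 37.59 in ctrl/LPS (3.60 ± 0.35, adjusted p = 0.00073), and Trim30a +18.9 kb had none, then 12.94 and 19.11 (2.54 ± 0.28, adjusted p = 0.0012). These are the resembling windows printed above. Trim30b −11.5 kb had 4.21 and 3.88, then 26.59 and 26.78 (1.68 ± 0.20, adjusted p = 0.0015), and the Trim30d promoter, named after its values were seen, none, then 5.51 and 7.86 (1.28 ± 0.35, adjusted p = 0.026). At gene level Trim30a p65 was 0 and 9.54, then 42.26 and 44.25, and did not pass the test.

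Trim14 and Trim45 gained p65 beside the RNAPII-pS5 rises given above. Trim14 had p65 only in the 4 LPS samples, at +0.9 kb in its intron, with 11.92 and 14.28 in ctrl/LPS (2.27 ± 0.21 as a site, adjusted p = 0.00063, and 1.79 ± 0.27 as a gene, adjusted p = 0.0061). Trim45 had none in ctrl/ctrl and 49.64 and 26.42 in ctrl/LPS as a gene (3.27 ± 0.36, adjusted p = 0.0022), from its promoter (none, then 14.51 and 9.66, 2.13 ± 0.59, adjusted p = 0.029, lost without either ctrl/ctrl sample, up to 0.102) and its 3′ UTR at +10.0 kb (none, then 30.07 and 13.56, 2.90 ± 0.45, adjusted p = 0.0037). The gene calls of p65 on Trim14 and Trim45 held in the 6 leave-one-out fits that could be run, none of them without a ctrl/LPS sample.

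Gains of p65 were not always matched by polymerase. Trim27 gained p65 at its promoter (none, then 8.91 and 18.97, 1.79 ± 0.45 as a gene, adjusted p = 0.029, up to 0.102 without a ctrl/ctrl sample), whereas its RNAPII-pS5 fell. Trim69, which had the highest p65 score of the family (16.87 and 23.17, then 96.46 and 64.54 as a gene, not called), gained a site at +1.0 kb, inside both Trim69 and Patl2 (none, then 18.63 and 25.3, 3.01 ± 0.21, adjusted p = 0.00029), and its RNAPII-pS5 was 42.29 and 45.49, then 46.93 and 50.44, and was not called. Trim72, the membrane repair gene MG53, gained p65 at −2.0 kb (none, then 12.63 and 14.43, 2.32 ± 0.27, adjusted p = 0.0014), where RNAPII-pS2 also appeared (none, then 29.08 and 20.51, 3.94 ± 0.30, adjusted p = 0.00039), and the next gene there is the inflammasome adaptor Pycard, 8.16 kb away.

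At Trim52 −61.6 kb (chr14:106044310-106044805) p65 went from none to 22.12 and 20.57 (2.98 ± 0.22, adjusted p = 0.00031), and at −94.0 kb from none to 18.96 and 11.9 (2.47 ± 0.31, adjusted p = 0.0018). RNAPII-pS2 at −94.1 kb was absent in ctrl/ctrl, 14.22 and 24.46 in IL-4 PT/ctrl, and 57.19 and 47.88 in ctrl/LPS (LPS 5.04 ± 0.29, adjusted p = 0.00033), and at −61.7 kb it was 9.77 and 8.28, 29.96 and 37.81, and 46.28 and 50.61 (LPS 2.24 ± 0.22, adjusted p = 0.00068). For RNAPII-pS2 at both Trim52 sites, the ctrl/LPS values lie above all samples without LPS, and the 24 hr IL-4 values lie between. p65 had no peak in IL-4 PT/ctrl at these sites. H3K27Ac was lower at both after 1 hr of IL-4, as given above.

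Falls of p65 were few. Trim3 +4.6 kb, named after its values were seen, had 9.01 and 16.7, then none (−4.27 ± 0.43, adjusted p = 0.00078), Trim17 −3.4 kb 14.04 and 14.01, then 8.17 and 6.76 (−1.96 ± 0.23, adjusted p = 0.0014), Trim34a −3.5 kb 7.22 and 11.29, then 8.77 and 3.84 (−1.68 ± 0.45, adjusted p = 0.026, and not called without centering, 0.252), and Trim8 +22.6 kb 10.6 and 15.44, then 11.68 and 12.21 (−1.14 ± 0.24, adjusted p = 0.012, and not called without centering, 0.74). The Trim34a and Trim8 calls were also lost in 2 and 3 of 8 leave-one-out fits (up to 0.137 and 0.104). At gene level Trim47, named after its values were seen, had 5.17 and 8.2, then 8.8 and 9.0, a call of −1.07 ± 0.30 (adjusted p = 0.043) that exists only relative to the centering and was not made without it.

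Motifs and overlaps of the Trim p65 sites are given as shares with no test. GGGNNNNNCC occurred in the middle 200 bases of 43 of 104 Trim sites (41.3%) and of 36.1% of all 37556 sites, and in 13 of the 31 that rose with LPS (41.9%) against 32.1% of all that rose. TTCNNNNGAA, a STAT6-type motif, occurred in 3 Trim sites (2.88% against 8.44%), GAAANNGAAA in 6 (5.77% against 6.77%), and GGAANNGAAA, a PU.1-IRF-type motif, in 12 (11.5% against 6.64%), all read on both strands, with the last 2 patterns able to overlap. Of the Trim p65 sites 67.3% overlapped a p300 peak of ctrl cells, 46.2% a PU.1 peak, and 45.2% an H3K27Ac region, against 63.9%, 46.9%, and 41.8% of all p65 sites.

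**Figure D5:**
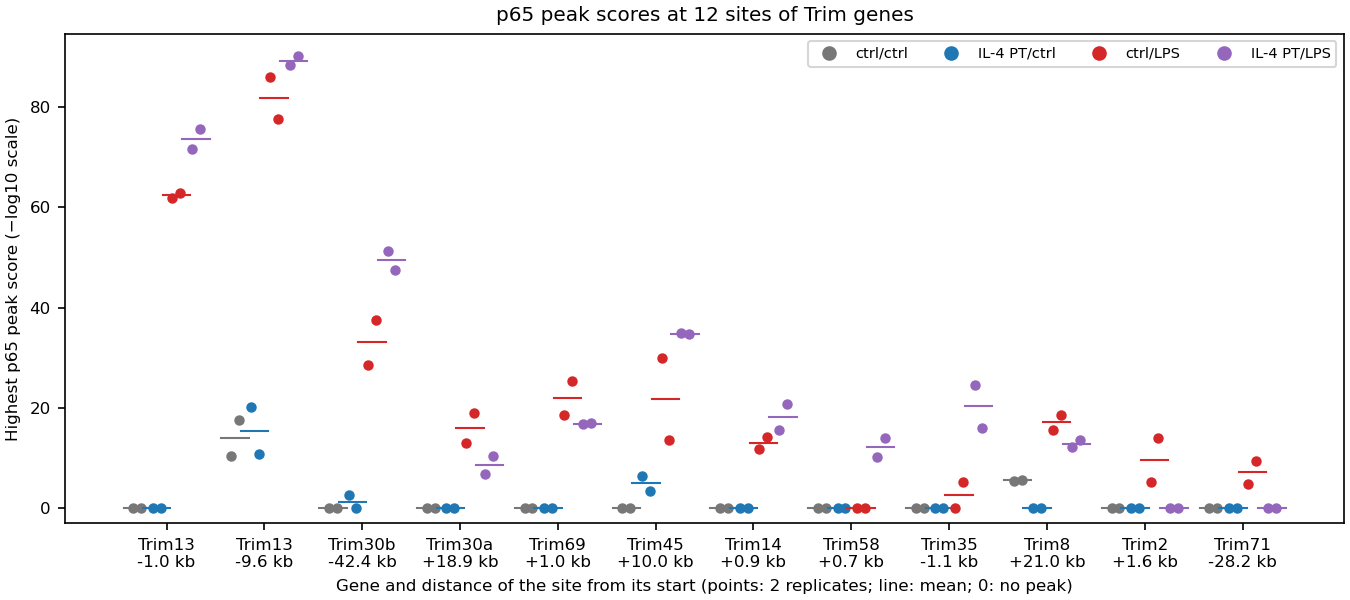
Highest p65 peak score (−log10 scale) at 12 Trim sites, named by gene and distance from its start, in 4 conditions (points are 2 replicates, lines their mean, 0 is no peak). Trim13 −1.0 kb is listed only with LPS (61.9 to 75.56), and Trim58 +0.7 kb only in IL-4 PT/LPS (10.32 and 13.99).

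H3K27Ac sites that changed after 1 hr of IL-4 often held p65 in the other experiment, in Trim genes and elsewhere. Of the 22 Trim sites that fell, 14 (63.6%) overlapped a p65 site and 7 (31.8%) one that rose with LPS, against 66.0% and 20.6% of all sites that fell. The 7 were near Trim13, Trim30b, Trim33, Trim45, Trim52 (2 sites), and Trim71. Of the 6 Trim sites that rose, all 6 overlapped a p65 site and 4 one that rose with LPS (near Trim30b, Trim69, Trim72, and Trim8), against 58.9% and 15.9% of all sites that rose. Of 52 uncalled Trim sites the shares were 53.8% and 11.5%.

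After 24 hr of IL-4 alone, few Trim genes changed. For RNAPII-pS5, none of 32 genes rose and 1 fell (background 4.83% and 3.65%), and the median change was −0.34 over Trim genes and −0.01 over all genes. By values alone, 9 of the 32 had lower non-overlapping groups and none higher. Over all 9570 genes, 1227 were lower and 1350 higher by that rule (26.9% in either direction). For RNAPII-pS2, 2 of 32 rose and 3 fell (background 7.01% and 6.69%), with a median of −0.40 against −0.09. For p65, 1 of 12 genes rose and none fell (9.57% and 5.57%), and 2 of 26 sites rose and 4 fell (14.5% and 8.96%).

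Trim30a had RNAPII-pS5 of 12.79 and 18.97 in IL-4 PT/ctrl against 40.21 and 49.37 in ctrl/ctrl (−1.58 ± 0.33, adjusted p = 0.039), a call lost in all 8 leave-one-out fits (up to 0.193). Its RNAPII-pS2 was 23.25 and 27.82 against 39.83 and 38.22 and was not called. Trim21 had RNAPII-pS2 of 6.76 and 8.04 in ctrl/ctrl and none in IL-4 PT/ctrl (−2.25 ± 0.49, adjusted p = 0.033), Trim23 13.11 and 13.45, then 0 and 4.59 (−2.24 ± 0.51, adjusted p = 0.037), and Trim26, named after its values were seen, 20.86 and 15.44, then 3.89 and 4.83 (−1.89 ± 0.37, adjusted p = 0.024). The calls on Trim21 and Trim23 were lost in 4 of 6 and 7 of 8 fits (up to 0.14 and 0.172).

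The RNAPII-pS2 rises were Trim15 (3.49 and 0, then 10.1 and 10.29, 2.37 ± 0.52, adjusted p = 0.034) and Trim45 (18.27 and 14.62, then 33.12 and 36.14, 1.24 ± 0.27, adjusted p = 0.034), both lost in 6 of 8 fits (up to 0.152 and 0.166). Trim45 was also the p65 gene that rose, from none to 6.43 and 7.62 (2.56 ± 0.36, adjusted p = 0.0098), a call lost without either ctrl/ctrl sample (up to 0.0526). Trim36, a ligase with a COS box, rose at +49.1 kb (20.02 and 17.46, then 42.93 and 43.76, 1.41 ± 0.22, adjusted p = 0.0086). The p65 sites that fell were Trim8 +21.0 kb, at the edge of the site that gained H3K27Ac (5.46 and 5.66, then none, −1.89 ± 0.18, adjusted p = 0.0019), Trim34a −3.5 kb (7.22 and 11.29, then none, −2.59 ± 0.45, adjusted p = 0.012), Trim17 −4.5 kb (6.62 and 4.1, then none, −1.80 ± 0.44, adjusted p = 0.035), and Trim30b −11.5 kb (4.21 and 3.88, then none, −1.43 ± 0.20, adjusted p = 0.0056). The Trim8 call held in the 6 leave-one-out fits that could be run, none of them without a ctrl/ctrl sample, and the others were lost in 1 to 3 of them (up to 0.0681 for Trim36, 0.0862 for Trim34a, 0.152 for Trim17, and 0.0534 for Trim30b).

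In cells pretreated with IL-4, RNAPII rose with LPS at the chromosome 7 cluster and at Trim25. For RNAPII-pS5, 4 of 31 genes rose and 2 fell (background 7.6% and 15.1%), and for RNAPII-pS2, 4 of 30 rose and 3 fell (10.4% and 11.1%). Trim30a had RNAPII-pS5 of 74.21 and 83.92 in IL-4 PT/LPS (2.36 ± 0.33 over IL-4 PT/ctrl, adjusted p = 0.0053) and RNAPII-pS2 of 95.2 and 83.29 (1.52 ± 0.26, adjusted p = 0.010), near its ctrl/LPS values. Trim34a had RNAPII-pS5 of 6.75 and 3.35 in IL-4 PT/ctrl and 32.34 and 30.13 in IL-4 PT/LPS (2.73 ± 0.53, adjusted p = 0.014) and RNAPII-pS2 of 4.01 and 4.69, then 22.32 and 24.04 (2.13 ± 0.46, adjusted p = 0.025). Over the 11 genes of the cluster, RNAPII-pS5 rose for 3 of 6 tested and fell for none, with a median of 1.93 against −0.20 over all genes. The count and the median include Trim30b, whose rise depends on peak annotation as given below. Without pretreatment, the RNAPII-pS5 changes of the cluster with LPS were 1.28 for Trim30a and 2.11 for Trim30d, both called. Trim34a (1.22) and Trim12c (0.05) were not called. For no cluster gene was the RNAPII-pS5 change with LPS called as different with pretreatment. The Trim30a RNAPII-pS5 call was lost without IL-4 PT/ctrl replicate 1 (0.0589), and its RNAPII-pS2 call and both Trim34a calls when any sample of the groups compared was left out (up to 0.0638, 0.117, and 0.12).

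Outside the cluster, Trim25 rose for both forms, with RNAPII-pS5 of 8.46 and 8.02, then 34.58 and 24.61 (1.84 ± 0.38, adjusted p = 0.019) and RNAPII-pS2 of 7.06 and 10.48, then 28.82 and 37.03 (1.64 ± 0.30, adjusted p = 0.014), calls lost in 4 and 3 of 8 fits (up to 0.129 and 0.0851). In ctrl cells Trim25 RNAPII-pS5 was 21.11 and 17.67, then 31.2 and 18.16 with LPS, which overlap. The LPS change of Trim25 was not called as different with pretreatment. The difference was 1.20 ± 0.54 for RNAPII-pS5 (adjusted p = 0.274) and 1.09 ± 0.43 for RNAPII-pS2 (adjusted p = 0.224). Trim32 fell again (RNAPII-pS5 23.27 and 26.22, then none, −4.08 ± 0.28, adjusted p = 0.0020, and RNAPII-pS2 62.32 and 68.44, then 12.71 and 11.04, −2.75 ± 0.30, adjusted p = 0.0026), as did Trim65 for RNAPII-pS2 (15.87 and 17.39, then 6.92 and 5.6, −1.71 ± 0.29, adjusted p = 0.011, lost in 4 of 8 fits, up to 0.0755). Trim30b had RNAPII-pS5 peaks that were not intergenic only in IL-4 PT/LPS (8.15 and 6.3, 2.33 ± 0.29 against the floor, adjusted p = 0.0037). The merged Trim30b site at −49.2 kb, annotated as intergenic, held the same 8.15 and had a peak in every sample. It had 24.96 and 19.15 in ctrl/ctrl, 11.97 and 6.02 in IL-4 PT/ctrl, 16.23 and 11.83 in ctrl/LPS, and 8.15 and 6.52 in IL-4 PT/LPS. The gene-level rise of Trim30b thus depends on which peaks are annotated as intergenic. The Trim32 RNAPII-pS2 call held in all 8 leave-one-out fits. The RNAPII-pS5 calls of Trim32 and Trim30b held in the 6 that could be run, none of them without a sample that carried the peaks.

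For p65 in pretreated cells, 3 of 27 genes rose and 2 fell with LPS (background 20.4% and 6.52%). Trim14 went from none to 15.54 and 23.9 (1.77 ± 0.27, adjusted p = 0.0076), and Trim21 from none to 21.38 and 12.43 (1.53 ± 0.39, adjusted p = 0.038). Trim25 went from none to 18.57 and 22.85 (1.86 ± 0.52, adjusted p = 0.047), from a site at −11.7 kb inside the neighboring gene Coil. The falls were Trim65 (5.53 and 2.7, then 4.1 and 0, −2.85 ± 0.63, adjusted p = 0.024) and Trim47 (9.37 and 8.22, then 11.39 and 15.76, −1.50 ± 0.30, adjusted p = 0.018), and without centering, where 22 genes rose and none fell, neither was called. Trim47 values themselves were higher with LPS. The Trim14 call held in the 6 leave-one-out fits that could be run, none of them without an IL-4 PT/LPS sample, and those of Trim21, Trim25, and Trim65 were lost in 4 of 6, 4 of 6, and 3 of 8 (up to 0.116, 0.134, and 0.128).

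Within LPS-treated cells, IL-4 pretreatment changed RNAPII at few Trim genes. For RNAPII-pS5, 2 of 24 genes rose and none fell (background 10.0% and 4.85%), and 6 of 61 sites rose and 9 fell (16.5% and 10.2%). By values alone, 8 of the 24 genes had higher non-overlapping groups and none lower. Over all 7856 genes, 2020 were higher and 979 lower by that rule (38.2% in either direction). RNAPII-pS5 lists were shorter in ctrl/LPS (14476 and 15349 peaks) than in IL-4 PT/LPS (17826 and 18207), and the part of this in the gains was not tested. Without centering, where the median over all genes was 0.60 (0.22 with it), 3 Trim genes rose and none fell. For RNAPII-pS2, none of 29 genes rose and 1 fell (5.94% and 3.6%), and 6 of 94 sites rose and 15 fell (16.5% and 9.3%). Trim33 RNAPII-pS5, absent in ctrl/LPS, was 10.13 and 11.16 in IL-4 PT/LPS, near its values without LPS (2.50 ± 0.29, adjusted p = 0.007), a call lost without either ctrl/LPS sample (up to 0.061). Trim30b rose as described above (1.93 ± 0.29, adjusted p = 0.011, lost without either ctrl/LPS sample, up to 0.0668), but with intergenic peaks counted its change was −0.58 (adjusted p = 0.189). Trim27 RNAPII-pS2 was 14.85 and 12.97 in ctrl/LPS and absent in IL-4 PT/LPS (−3.36 ± 0.60, adjusted p = 0.022, up to 0.15 with a sample left out).

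RNAPII-pS5 at single sites moved both ways under pretreatment. Peaks absent in ctrl/LPS were present in IL-4 PT/LPS near the starts of Trim36 at +0.3 kb (8.52 and 7.02, 2.23 ± 0.33, adjusted p = 0.0053) and Trim27 at −59 bp (4.99 and 8.24, 1.96 ± 0.35, adjusted p = 0.010). Both sites also held RNAPII-pS5 in the 4 samples without LPS, with 3.6 to 6.55 at Trim36 and 4.28 to 8.56 at Trim27. These are low peaks, and the part of the shorter ctrl/LPS lists in their absence was not tested. A separate Trim36 promoter site at −0.4 kb did hold RNAPII-pS5 in ctrl/LPS (8.81 and 5.16) as in IL-4 PT/LPS (7.51 and 7.54). As a gene, Trim36 RNAPII-pS5 was not called for pretreatment under LPS (0.39 ± 0.48, adjusted p = 0.626). Trim25 +3.0 kb, in its intron, had 8.34 and 6.36 in ctrl/LPS and no peak in the other 6 samples (−2.53 under pretreatment, adjusted p = 0.0021), and Trim30b −18.9 kb had 6.48 and 9.52 in ctrl/ctrl, 8.99 and 14.26 in ctrl/LPS, and none with pretreatment (−3.17 ± 0.32, adjusted p = 0.0022). Trim56 −63.8 kb, whose product acts in antiviral signaling, had 24.14 and 29.6 in ctrl/ctrl, 12.86 and 10.01 in IL-4 PT/ctrl, and none in the 4 LPS samples (LPS −4.03 ± 0.26, adjusted p = 0.00076).

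The distal Trim24 and Trim33 sites that lost H3K27Ac after 1 hr of IL-4 were among the RNAPII-pS2 sites that fell. Trim24 −138.3 kb had 31.74 and 29.58 in ctrl/ctrl, 6.98 and 7.93 in IL-4 PT/ctrl, 50.28 and 52.07 in ctrl/LPS, and 7.42 and 8.39 in IL-4 PT/LPS (−2.64 ± 0.22 under LPS, adjusted p = 0.0008). Trim24 −147.3 kb had 13.66 and 19.47, none, 44.64 and 27.69, and none (−4.60 ± 0.32, adjusted p = 0.00069). Trim33 +99.0 kb had 11.0 and 8.75, none, 14.93 and 10.35, and none (−3.10 ± 0.26, adjusted p = 0.00081). At all 3 sites both IL-4-pretreated groups lay below both groups without IL-4, and H3K27Ac had been lower after 1 hr of IL-4, with 55.9 and 64.7, then 39.7 and 38.5 at Trim33 +99.1 kb (−0.57 ± 0.10, adjusted p = 0.024, lost in 3 of 4 leave-one-out fits, up to 0.0852).

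p65 under LPS was more often higher than lower with pretreatment at site level. Of 100 Trim sites, 24 rose and 7 fell (background 27.4% and 6.13%), and of 30 genes 1 rose and 1 fell (12.2% and 2.76%). The p65 lists were longer in IL-4 PT/LPS (36738 and 38955 peaks) than in ctrl/LPS (26305 and 26820), and the part of this in the gains was not tested. Trim36 +36.8 kb had no p65 peak in 6 samples and 14.95 and 17.03 in IL-4 PT/LPS (3.34 ± 0.17, adjusted p = 0.00029), and RNAPII-pS2 at +36.5 kb was found only in IL-4-pretreated samples (5.65 and 5.98 without LPS, 6.01 and 9.03 with LPS, 2.46 ± 0.27 under LPS, adjusted p = 0.0016). H3K27Ac at Trim36 +36.7 kb was 45.7 and 39.4 in ctrl and 25.8 and 26.4 after 1 hr of IL-4 (−0.65 ± 0.10, adjusted p = 0.016, lost in 3 of 4 fits, up to 0.0592).

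Trim58, known for its part in erythroid maturation, had p65 at +0.7 kb (10.32 and 13.99, 2.93 ± 0.20, adjusted p = 0.00034) and −0.8 kb (10.74 and 8.16, 2.57 ± 0.22, adjusted p = 0.00055) in IL-4 PT/LPS and in no other sample at those sites. Trim29 −4.7 kb (8.63 and 8.88, 2.47 ± 0.17, adjusted p = 0.00034), Trim30b −46.1 kb (6.73 and 15.77, 2.71 ± 0.38, adjusted p = 0.0032), and Trim17 +4.5 kb (6.48 and 7.91, 2.18 ± 0.18, adjusted p = 0.00049) followed the same pattern. Trim17 was also the gene that rose (2.00 ± 0.22, adjusted p = 0.0038). Trim35 −1.1 kb had 0 and 5.25 in ctrl/LPS and 24.65 and 16.01 in IL-4 PT/LPS (2.65 ± 0.66, adjusted p = 0.027, up to 0.211 with a sample left out). The p65 calls of Trim36, Trim58, Trim29, Trim30b, and Trim17 rest on peaks in the 2 IL-4 PT/LPS samples and could not be tested without either of them. They held in the 6 fits that left out another sample. Each of those fits removed a sample that stood at the floor, so holding in them says little about how firm the calls are.

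Lower p65 with pretreatment was found at Trim2 +1.6 kb (5.31 and 14.04 in ctrl/LPS, then none, −2.99 ± 0.45, adjusted p = 0.0042, lost in 2 of 6 fits, up to 0.0684), Trim71 −28.2 kb, inside Cnot10 (4.96 and 9.52, then none, −2.66 ± 0.33, adjusted p = 0.0019), Trim72 −2.0 kb (12.63 and 14.43, then 8.22 and 5.35, −1.29 ± 0.27, adjusted p = 0.015, lost in 2 of 8, up to 0.108), and Trim30a +18.9 kb (12.94 and 19.11, then 6.82 and 10.35, −1.17 ± 0.28, adjusted p = 0.025, lost in 6 of 8, up to 0.205). Trim71 was the gene that fell (−2.84 ± 0.35, adjusted p = 0.005, lost without either IL-4 PT/LPS sample, up to 0.0955). At Trim30b −42.4 kb, whose sequence resembles Trim30a +18.9 kb, p65 was 28.62 and 37.59 in ctrl/LPS and 51.27 and 47.57 in IL-4 PT/LPS and was not called, and the pair was not tested against each other.

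Whether the LPS change itself differed with pretreatment was tested as a difference of the LPS changes. For RNAPII-pS5, 1 of 34 genes was higher and none lower (background 2.0% and 2.05%): Trim33, by 2.45 ± 0.41 (adjusted p = 0.036). For RNAPII-pS2, 1 of 34 was higher and none lower (2.81% and 2.34%): Trim23, with 13.11 and 13.45 in ctrl/ctrl, 0 and 4.59 in IL-4 PT/ctrl, none in ctrl/LPS, and 5.84 and 4.89 in IL-4 PT/LPS (4.14 ± 0.72, adjusted p = 0.034). For p65, 1 of 31 genes was higher and 1 lower (5.07% and 2.42%), Trim17 by 1.86 ± 0.32 (adjusted p = 0.026) and Trim71 by −2.98 ± 0.49 (adjusted p = 0.025), and 13 of 104 sites were higher and 4 lower (17.7% and 5.56%). The Trim33 and Trim23 calls were lost in all 8 leave-one-out fits (up to 0.101 and 0.108), and those of Trim17 and Trim71 in 5 of 6 and 6 of 6 (up to 0.0849 and 0.146).

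Of the RNA and DNA sensing pathway in which several TRIM ligases act, 19 of 21 listed genes had peaks. With LPS, 4 of 17 rose and 1 fell for RNAPII-pS5 (background 9.39% and 22.5%), 4 of 17 rose and none fell for RNAPII-pS2 (11.3% and 15.4%), and 6 of 17 rose and 1 fell for p65 (24.4% and 7.91%). Ddx58, which encodes RIG-I, the target of TRIM25, had RNAPII-pS5 of 9.74 and 12.91 in ctrl/ctrl, none in IL-4 PT/ctrl, 16.96 and 20.71 in ctrl/LPS, and 22.49 and 27.38 in IL-4 PT/LPS (24 hr IL-4 −3.02 ± 0.32, adjusted p = 0.00595). Irf7, the interferon regulator, gained H3K27Ac after 1 hr of IL-4 (174.7 and 171.5, then 415.9 and 407.9, 1.24 ± 0.05, adjusted p = 0.0022). The list moved both ways for H3K27Ac. By values, Ikbke was lower with IL-4 (1181.8 and 1185.0, then 668.6 and 642.2) and Tbk1 higher (649.8 and 627.3, then 792.0 and 797.4).

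Of 5 TRIM-family genes under other symbols, after 1 hr of IL-4 1 of 4 tested rose for RNAPII-pS5 and 2 of 3 for H3K27Ac (background 0.343% and 12.3%), and none fell. With LPS none of 3 was called for RNAPII-pS5, 1 of 4 rose for RNAPII-pS2 (background 11.3%), and 1 of 3 fell for p65 (background 7.91%). Mid1, the TRIM18 gene, had RNAPII-pS5 after 1 hr of IL-4 (17.67 and 16.54) but not in ctrl (3.60 ± 0.24, adjusted p = 0.030), and H3K27Ac of 42.8 and 42.7, then 156.0 and 135.8 (1.76 ± 0.09, adjusted p = 0.0038). Mefv, the pyrin gene, had H3K27Ac of 183.9 and 196.2, then 320.5 and 327.4 (0.76 ± 0.06, adjusted p = 0.0093). Pml had p65 of 10.28 and 15.13 in ctrl/ctrl, 5.56 and 5.39 in ctrl/LPS, and 15.96 and 22.25 in IL-4 PT/LPS (LPS −2.71 ± 0.29, adjusted p = 0.0019, and pretreatment under LPS 1.34 ± 0.29, adjusted p = 0.032).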

How the data were processed

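Peak lists of 56 ChIP-seq samples were analyzed. Per the submitters' processing notes, the authors used BWA 0.7.10, SAMtools 0.1.19, HOMER 4.2, and MACS2 2.0.10 with mm10. The authors deposited MACS2 scores, which are −log10 p- or q-values (which of these is not stated), and for H3K27Ac a signal of normalized tags in HOMER regions of 1001 bp. Such scores rise with sequencing depth, which is unknown, and only the number of peaks per sample was at hand. Values were log2-transformed after filling missing peaks with the antibody's lowest score, centered, and fitted by antibody and experiment with limma 3.58.1 in R 4.3.3, which was tested on simulated data. In a departure from the written design, each comparison was restricted to features with a peak in 2 or more samples of its conditions. Named Trim genes were the 15 with the smallest adjusted p, the highest of each antibody and experiment, and up to 2 largest non-overlapping changes per comparison. Exceptions among the Trim genes are marked as named after their values were seen. The rule did not cover the sensing pathway genes and the TRIM-family genes under other symbols, which are named without that mark. Members, lists, motifs, and tests were chosen with earlier results of these data known. RefSeq and GENCODE annotation and GRCm38 sequence (Python 3.11.15, Biopython 1.88) gave gene bodies and windows. Alternatives were no centering, quantile normalization, the highest peak of a gene, intergenic or promoter peaks, a floor 4 times as high, a peak in every sample, the upper 50% of peaks, an overlap of 100 bp, a replicate block, and each sample left out.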

Additional observations from a re-analysis of the deposited data

Results flagged for a closer look

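The results below were picked out because the change with LPS differed between IL-4-pretreated and untreated cells by the test of that difference in limma. Values are log2 differences of the LPS changes, pretreated minus untreated. At gene level they were 2.45 for Trim33 RNAPII-pS5, 4.14 for Trim23 RNAPII-pS2, 1.86 for Trim17 p65, and −2.98 for Trim71 p65, the last from a site inside Cnot10. The limit on peak names given above for Trim23 and Trappc13 applies here too.

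At p65 sites the LPS change was higher in pretreated cells near Trim58 (2.37 at −842 bp and 2.73 at 691 bp), Trim17 (1.55 at −3396 bp and 1.99 at 4514 bp), Trim36 (3.14 at 36819 bp and 1.58 at 24782 bp), and Trim34a (3.11 at −3468 bp). It was also higher at Trim52 (1.47 at −52753 bp), Trim8 (1.22 at 20976 bp), Trim2 (1.52 at −70 bp), Trim56 (1.46 at 13080 bp), Trim30b (2.51 at −46069 bp), and Trim29 (2.28 at −4743 bp). It was lower at Trim2 (−3.18 at 1590 bp), Trim56 (−1.04 at −36667 bp), Trim72 (−1.49 at −2020 bp), and Trim71 (−2.85 at −28198 bp). Of these 17 site results, those of Trim58 (both), Trim17 4514 bp, Trim36 (both), Trim2 −70 bp, and Trim29 held in the 6 leave-one-out fits that could be run. At each of these 7 sites a p65 peak was listed only in the 2 IL-4 PT/LPS samples, so the sites could not be tested without either of them, and the other groups stand at the floor and carry no spread of their own.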

How the results depend on the processing

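With 2 replicates per group, unknown depth, and absent peaks set to a floor, most counts of called Trim genes are small and move with the settings. Below, gene counts are given first and the reported count stands in brackets. LPS means ctrl/LPS minus ctrl/ctrl, 24 hr IL-4 means IL-4 PT/ctrl minus ctrl/ctrl, pretreatment means IL-4 PT/LPS minus ctrl/LPS, and pretreated LPS means IL-4 PT/LPS minus IL-4 PT/ctrl. The cause of each shift was not tested.

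Without centering, genes called were 0 (1) for RNAPII-pS5 after 1 hr of IL-4, 2 (1) for its LPS difference, and for p65 16 (4) for LPS, 2 (1) for 24 hr IL-4, 5 (2) for pretreatment, and 22 (5) for pretreated LPS. Sites called were 0 (6) for RNAPII-pS5 and 0 (1) for p300 after 1 hr of IL-4 and 53 (35) for p65 with LPS. The share of rises among all gene calls went from 29.5% to 18.9% for RNAPII-pS5 LPS, 67.4% to 82.5% for its pretreatment, 34.2% to 53.0% for it after 1 hr, 49.4% to 69.7% for its difference, 48.2% to 62.3% for RNAPII-pS2 pretreated LPS, 54.6% to 65.6% for its difference, 75.5% to 97.5% for p65 LPS, 75.8% to 99.1% for pretreated LPS, and 67.7% to 86.0% for its difference. Quantile normalization gave 0 (1) for RNAPII-pS5 and 1 (0) for p300 at 1 hr, 5 (11) for RNAPII-pS5 LPS, 0 (1) for its difference, 2 (1) for RNAPII-pS2 pretreatment, and for p65 2 (1) for 24 hr IL-4, 1 (2) for pretreatment, 3 (5) for pretreated LPS, and 0 (2) for the difference.

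Taking the highest peak of a gene gave 1 (0) for p300 at 1 hr, 0 (1) for RNAPII-pS5 24 hr IL-4, 3 (1) for its difference, 3 (6), 2 (5), and 0 (1) for RNAPII-pS2 LPS, 24 hr IL-4, and difference, and 2 (1) for p65 24 hr IL-4. With intergenic peaks, RNAPII-pS5 gave 0 (1) at 1 hr, 18 (11) for LPS, 5 (1) for 24 hr IL-4, and 10 (6) for pretreated LPS, RNAPII-pS2 11 (6) for LPS, 9 (5) for 24 hr IL-4, 3 (1) for pretreatment, and 3 (1) for the difference, and p65 10 (4) for LPS and 3 (1) for 24 hr IL-4. In that setting 2 named results changed sign: Trim8 H3K27Ac after 1 hr of IL-4 was 0.11 (−0.47 as reported) and Trim30b RNAPII-pS5 for pretreatment −0.58 (1.93 as reported). With promoter peaks alone, counts were 0 (1) and 0 (6) for RNAPII-pS5 and H3K27Ac at 1 hr, 5 (11), 3 (1), 1 (2), and 3 (1) for RNAPII-pS5 LPS, 24 hr IL-4, pretreatment, and difference, 1 (5), 3 (7), and 0 (1) for RNAPII-pS2 24 hr IL-4, pretreated LPS, and difference, and 0 (1), 3 (5), and 1 (2) for p65 24 hr IL-4, pretreated LPS, and difference.

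A floor 4 times as high gave 0 (1) and 1 (0) for RNAPII-pS5 and RNAPII-pS2 at 1 hr, 5 (1), 0 (2), and 0 (1) for RNAPII-pS5 24 hr IL-4, pretreatment, and difference, 0 (1) for RNAPII-pS2 pretreatment, and 13 (4), 0 (1), 9 (2), 12 (5), and 7 (2) for p65 LPS, 24 hr IL-4, pretreatment, pretreated LPS, and difference. Requiring a peak in every sample gave 0 (1) and 2 (0) for RNAPII-pS5 and p300 at 1 hr, 5 (11), 0 (2), and 0 (1) for RNAPII-pS5 LPS, pretreatment, and difference, 3 (5), 0 (1), and 0 (1) for RNAPII-pS2 24 hr IL-4, pretreatment, and difference, and 2 (4), 0 (1), 0 (2), 1 (5), and 0 (2) for p65. Testing all features of an experiment in each comparison, added after seeing the data, gave 7 (4) for p65 LPS.

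The upper 50% of peaks gave gene counts of 2 (0) for RNAPII-pS2 and 1 (0) for PU.1 at 1 hr, 4 (1) and 6 (1) for RNAPII-pS5 24 hr IL-4 and difference, 3 (6) and 5 (1) for RNAPII-pS2 LPS and difference, and 0 (1), 4 (2), and 4 (2) for p65 24 hr IL-4, pretreatment, and difference. It gave site counts of 2, 5, 7, 1, and 3 (all 0) for RNAPII-pS2, PU.1, HDAC1, HDAC2, and HDAC3 and 16 (28) for H3K27Ac at 1 hr, 23 (38) for RNAPII-pS5 LPS, 19 (48) and 8 (21) for RNAPII-pS2 LPS and pretreatment, and 23 (35) and 2 (6) for p65 LPS and 24 hr IL-4. An overlap of 100 bp moved no site count by over 1.5 times.

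Replicate numbers did not pair the samples: over 52 pairs of conditions, replicate differences correlated by −0.032 to 0.079. With a replicate block, gene counts were 0 (1) and 1 (6) for RNAPII-pS5 and H3K27Ac at 1 hr, 0 (1) and 0 (1) for RNAPII-pS5 24 hr IL-4 and difference, 2 (5) and 0 (1) for RNAPII-pS2 24 hr IL-4 and difference, and 2 (1) and 0 (2) for p65 24 hr IL-4 and difference, and site counts 0 (6) and 0 (1) for RNAPII-pS5 and p300 at 1 hr. The other 29 counts stayed within 1.5 times.

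With each sample left out, gene counts at 1 hr ran from 0 to 1 for H3K27Ac (6) and were 0 for all others. For LPS they ran from 0 to 11 (11) for RNAPII-pS5, 0 to 4 (6) for RNAPII-pS2, and 0 to 6 (4) for p65. For 24 hr IL-4 they were 0 (1), 0 to 4 (5), and 0 to 2 (1), for pretreatment 0 to 4 (2), 0 to 3 (1), and 0 to 4 (2), for pretreated LPS 1 to 7 (6), 2 to 9 (7), and 0 to 7 (5), and for the difference 0 (1), 0 (1), and 0 to 2 (2). Site counts at 1 hr were 7 to 14 (28) for H3K27Ac, 0 (6) for RNAPII-pS5, 0 to 16 (1) for p300, and 0 for the others. For LPS they were 11 to 41 (38), 22 to 46 (48), and 4 to 39 (35, lowest without ctrl/LPS replicate 1), for pretreatment 6 to 15 (15), 9 to 20 (21), and 4 to 31 (31), and for p65 0 to 6 (6) for 24 hr IL-4 and 1 to 20 (17) for the difference.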
